A study of Eublepharis macularius with 8 samples.

Results

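Levels of 9 transcription factor genes of the tooth field, LHX6, LHX8, PAX9, BARX1, BARX2, PRRX1, PRRX2, PITX1 and OSR2, were measured in the teeth of adult leopard geckos (Eublepharis macularius) and compared between functional and developing teeth. The genes were taken by exact symbol from a table of 22488 genes, and all 9 were present and passed the filter on low counts, with 15491 genes tested. Functional teeth are those in use, and developing teeth are replacements still forming. Each group held 4 libraries of whole teeth. Replicates 1 to 3 of each were female samples of 3 teeth, and replicate 4 was a male sample of 10 functional or 11 developing teeth. Replicate 4 also had the lowest RNA integrity number of each group (9.1 functional and 8.8 developing, against 9.2 to 9.6 in the others). Sex, tooth number and RNA integrity therefore cannot be told apart. No treatment, mutation or strain is given for either group. The labels call the libraries biological replicates but give neither the animals behind each nor the jaw the teeth came from, so p-values reflect only the spread among these libraries.

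In mouse embryos, homeobox and paired-box factors divide the jaw into regions before teeth form. Growth factors from the oral epithelium, mainly FGF8 and BMP4, switch these genes on or keep them off in the mesenchyme beneath. LHX6 and LHX8 are LIM-homeodomain factors of the tooth-forming mesenchyme, BARX1 marks its proximal, molar-forming part, and PAX9 and its partner MSX1 maintain BMP4 there as the tooth bud forms. PITX1 is made in oral epithelium and lower jaw mesenchyme, PRRX1 and PRRX2 are paired-type homeobox factors of facial and limb mesenchyme, and OSR2 is a zinc-finger factor that limits the tooth field on its lingual side. BARX2 is a homeobox factor of epithelia and muscle.

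Of the 9 genes, LHX8 was lower and BARX2 higher in functional teeth, and the other 7 did not pass the test (quasi-likelihood test of edgeR, p adjusted by Benjamini-Hochberg over all genes tested, threshold 0.05). Of all genes, 2.81% passed in either direction, 0.8% higher and 2.01% lower (124 and 312 genes). At an unadjusted p under 0.05 there were 4 of the 9, with OSR2 and LHX6 added, and 22.3% of all genes. On library totals without TMM, a scaling that corrects for a few very abundant transcripts, the split was 151 higher and 7453 lower, the median of all genes moved to -0.59 (log2), and 6 of the 9 passed beside 49.1% of all genes. DESeq2's Wald test called 2 of the 9 and 11% of all genes (721 higher and 959 lower). With the replicate number as a block, 1 of the 9 passed beside 1.42% of all genes. The members' median log2 fold change, functional minus developing, was -0.42, against 0 over all genes. Because whole teeth were sequenced, fewer cells of a type and less RNA per cell cannot be told apart.

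**Figure D1:**
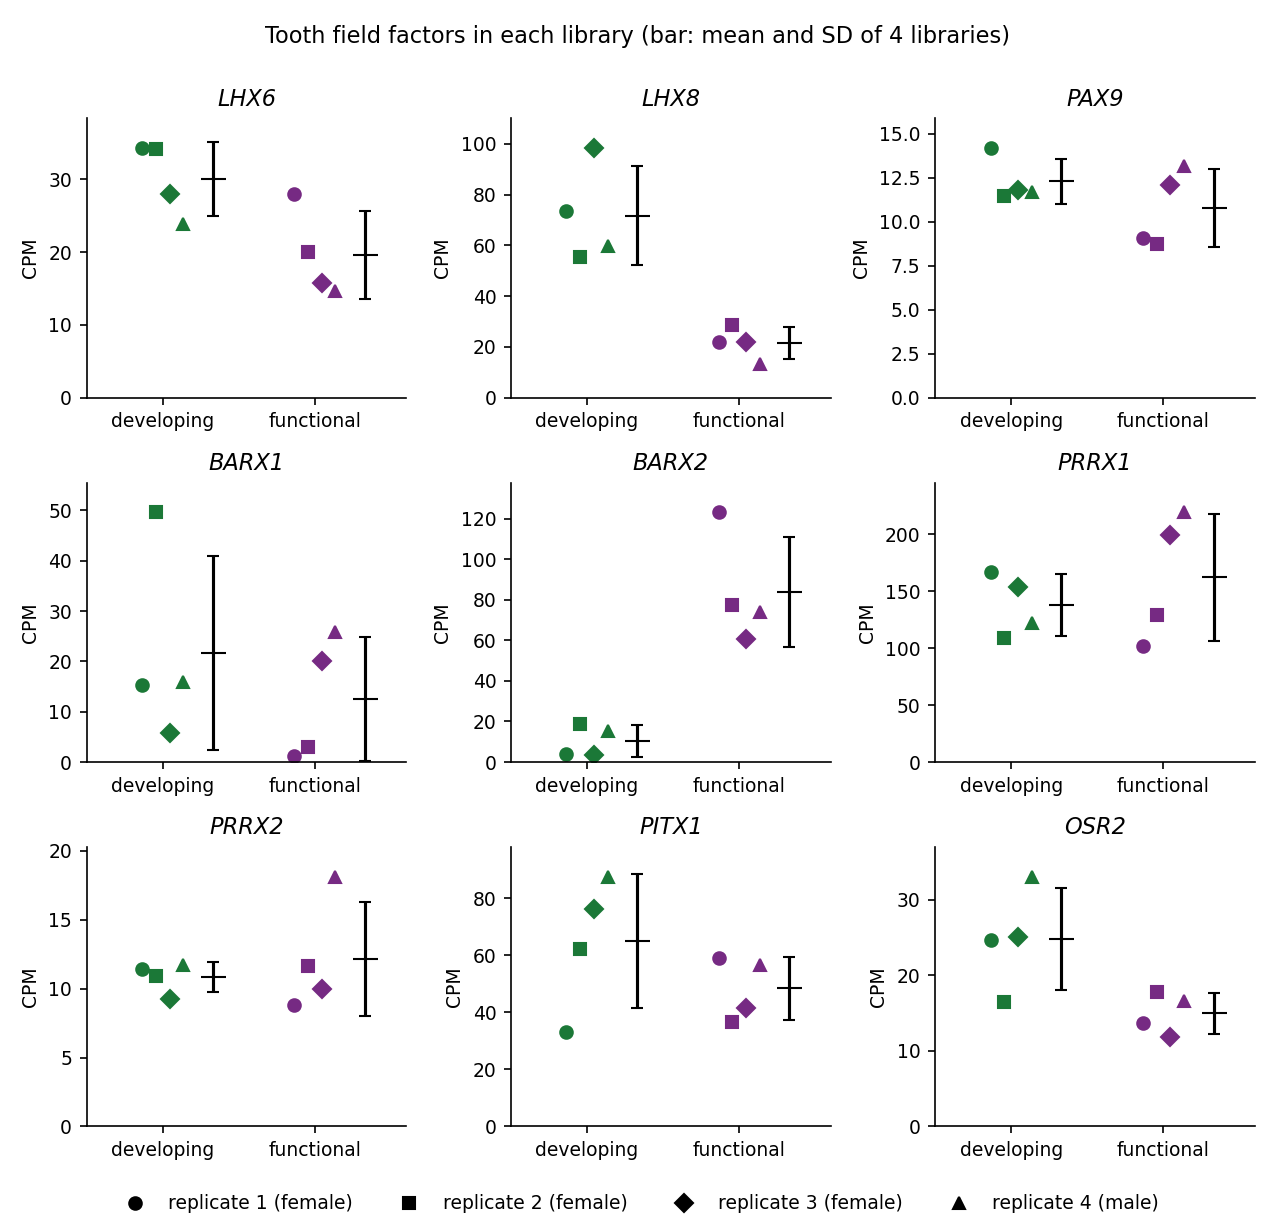
Level of each of the 9 genes in CPM (counts scaled to library size, y axis from 0) in the 4 developing and 4 functional libraries, with symbols for replicate numbers and bars for mean and SD. The LHX8 and BARX2 groups do not overlap, and BARX1 spreads from 1.3 to 25.9 CPM within functional teeth alone.

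The libraries carried tooth transcripts and differed in composition. Total estimated counts lay between 14144573 and 30935120. The dentin gene DSPP was present in both groups (4261 ± 728 CPM in functional and 3227 ± 2042 in developing teeth, mean ± SD, n = 4). Summed levels below cover every gene of a list that is in the table, and counts cover those tested. The summed level of 9 dental epithelium and ameloblast genes was 1549, 317, 313 and 316 CPM in functional replicates 1 to 4, so replicate 1 stood apart. In developing replicates 1 to 4 it was 5365, 9481, 21620 and 33953 CPM. Of the 9 genes tested, 1 passed, SP6, a transcription factor of ameloblasts (lower). At an unadjusted p under 0.05 and by DESeq2, 7 of 9 were lower. The summed level of 11 odontoblast and bone genes ran from 421682 to 445907 CPM in functional libraries. In developing replicates 1 to 4 it was 198375, 188519, 44744 and 37447 CPM, so replicates 1 and 2 stood well above replicates 3 and 4. Most of this sum came from the collagen genes COL1A1 and COL1A2. They averaged 260628 and 133120 CPM in functional against 68515 and 37857 CPM in developing teeth. Neither passed (adjusted p = 0.139 and 0.155, edgeR). Of the 11 genes, BGLAP, the osteocalcin gene, was higher and ALPL, the alkaline phosphatase of mineralization, lower (6 higher and 1 lower unadjusted, 5 and 1 by DESeq2). Of 11 macrophage and odontoclast genes (555 to 2196 CPM against 192 to 365), 3 were higher: the integrin gene ITGB2, the complement receptor gene VSIG4 and the protease gene CTSS (9 higher unadjusted and by DESeq2). With the replicate block 2 remained called, and CTSS had an adjusted p of 0.0518 (edgeR). Of 14 cell cycle genes (65.3 to 130 CPM against 153 to 422), 6 were lower, with KIF20A, FOXM1, PLK1, CENPE and BUB1 the smallest in p (14 lower unadjusted, 13 by DESeq2). With the replicate block 3 were called, and CENPE and BUB1 had adjusted p-values of 0.0555 and 0.0537 (edgeR). By edgeR 0 of 9 endothelial genes passed (124 to 193 CPM against 63.5 to 132; 7 higher at an unadjusted p under 0.05, 3 by DESeq2). The same test passed 0 of 4 pericyte and smooth muscle genes (59.7 to 133 against 69.1 to 99.1; 0 unadjusted and 0 by DESeq2) and 0 of 3 nerve and Schwann cell genes (117 to 205 against 176 to 279; 2 lower unadjusted and by DESeq2). HAND2, a factor of the lower jaw and distal arch mesenchyme in mouse, split the libraries within both groups. It stood at 0.169, 19, 9.14 and 8.65 CPM in functional replicates 1 to 4 and at 15.5, 0.276, 0.155 and 0.269 CPM in developing replicates 1 to 4 (chosen after its values were seen). Thus 3 of the 4 libraries with HAND2 were functional, and the part of this in the differences reported here was not tested.

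LHX8 was about 3-fold lower in functional teeth. It measured 73.6, 55.4, 98.3 and 59.6 CPM in developing replicates 1 to 4 and 21.8, 28.7, 22.1 and 13.3 CPM in functional replicates 1 to 4. Every functional library lay below every developing library, as in 8.6% of all genes tested. The means were 71.7 ± 19.3 and 21.5 ± 6.3 CPM (SD, n = 4), which is a log2 fold change of -1.74 ± 0.27 (SE; adjusted p = 0.0276, edgeR; 95% interval -2.36 to -1.12). Same-numbered libraries differed by -1.76, -0.95, -2.16 and -2.16 (log2). Because the groups did not overlap, any pairing of libraries gives this direction, so it adds no further evidence. The size changed little when 1 library was left out (-1.91 to -1.53), but the adjusted p rose to between 0.055 and 0.0987 without any of functional replicates 1 to 4 or developing replicates 3 and 4. Those 6 fits also called fewer genes altogether than the 2.81% with all libraries: 1.06%, 0.101%, 0.076% and 0.0509% of all genes passed without functional replicates 1 to 4 in turn, and 0.185% and 0.339% without developing replicates 3 and 4. Without developing replicates 1 and 2, where LHX8 passed, 2.43% and 4.07% did. Of the mesenchyme markers, 8 of 9 tested genes of the mesenchyme and pulp fibroblast list had positive log2 fold changes (median 0.5), the list's summed level was 9016 to 14376 CPM in functional and 4949 to 13240 CPM in developing libraries, and 0 passed by edgeR (3 were higher at an unadjusted p under 0.05, and DESeq2 called 0). The part of mesenchyme content in the LHX8 difference was not tested.

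LHX6, the close relative of LHX8, had a smaller difference that did not pass. Its levels were 34.3, 34.2, 28 and 23.8 CPM in developing and 28, 20, 15.8 and 14.6 CPM in functional replicates 1 to 4. Functional replicate 1 reached the level of developing replicate 3, so the groups overlapped, although within each replicate number the functional library was the lower (differences of -0.29, -0.78, -0.83 and -0.7, log2). The log2 fold change was -0.62 ± 0.22 (adjusted p = 0.161, edgeR; 95% interval -1.13 to -0.11).

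The balance of this pair differed between tooth types. LHX6 counts per LHX8 count were 0.467, 0.617, 0.285 and 0.399 in developing and 1.28, 0.696, 0.715 and 1.1 in functional replicates 1 to 4. All 4 functional ratios lay above all 4 developing ratios. The mean log2 ratio was -1.23 ± 0.46 in developing and -0.13 ± 0.44 in functional teeth (SD, n = 4), a difference of 1.1 (two-sided exact permutation test, p = 0.0286, adjusted over 3 gene pairs 0.0429). This p is the smallest that 4 against 4 libraries can give, so it only restates that the ratios did not overlap. With the replicate block (exact sign flips, smallest possible p 0.125) the adjusted p was 0.188. LHX8 alone also did not overlap, as 15% of single genes did not, and the share over other gene pairs was not computed. A ratio within a library is independent of library scaling, and transcript length cancels in its change, but the ratio itself is not a ratio of molecules.

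**Figure D2:**
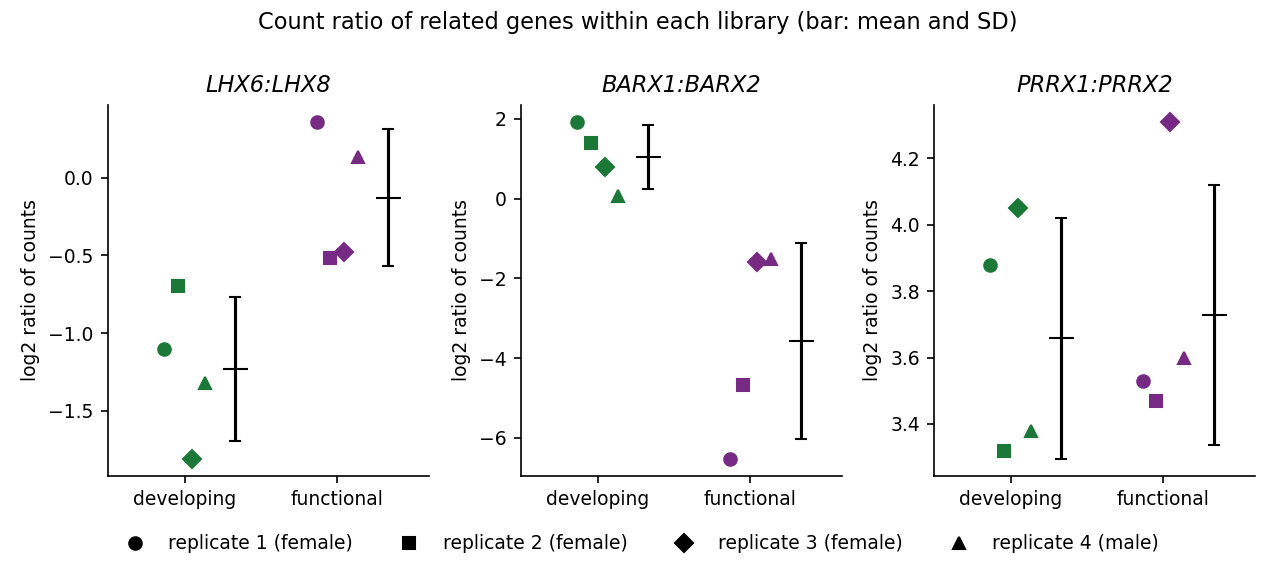
Log2 ratio of counts (y axis) of LHX6 to LHX8, BARX1 to BARX2 and PRRX1 to PRRX2 in each library, with mean and SD of 4 libraries per group. The first 2 ratios do not overlap between tooth types, while that of PRRX1 to PRRX2 averages 3.66 and 3.73.

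BARX2 was about 8-fold higher in functional teeth. It measured 4.02, 18.8, 3.26 and 15.2 CPM in developing and 123, 77.5, 60.8 and 73.8 CPM in functional replicates 1 to 4. The lowest functional library was above the highest developing one, as in 6.42% of all genes tested. Within developing teeth, replicates 2 and 4 stood above replicates 1 and 3, a range of 5.76-fold. The means were 10.3 ± 7.86 and 83.7 ± 27.1 CPM (SD, n = 4), and the log2 fold change was 3.02 ± 0.6 (adjusted p = 0.0427, edgeR; 95% interval 1.64 to 4.4). With the replicate number as a block the log2 fold change was 3.32 and the adjusted p 0.0591. Leaving out any of the 4 functional libraries or developing replicates 1, 3 or 4 also raised the adjusted p above the threshold (0.0546 to 0.115), with log2 fold changes between 2.74 and 3.28. BARX2 counts were not whole in 3 of the 8 libraries (by more than 0.01), as happens when kallisto divides reads among transcripts that share sequence, and which transcript shares them is not known. The other 8 genes were whole in every library.

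Epithelial markers went different ways. Of the 9 dental epithelium and ameloblast genes, the 7 of enamel formation and attachment were AMELX, AMBN, ENAM, AMTN, MMP20, SP6 and LAMA3. All 7 were lower in every functional than in any developing library, as were 8.6% of all genes tested. Their log2 fold changes lay between -6.51 and -2, and only SP6 passed by edgeR. EPCAM, an adhesion protein of epithelia, averaged 109 ± 27.6 CPM in functional and 97.5 ± 28 in developing teeth (log2 fold change 0.16 ± 0.27, not past the test), and TP63, the master factor of stratified epithelia, 74.1 ± 30 and 68 ± 35.9 CPM (0.12 ± 0.44). Of the oral mucosa list, 4 of 11 genes were in the table under these symbols and 3 were tested. Their summed level was 357 to 601 CPM in functional and 159 to 407 CPM in developing libraries. ELF3, an epithelial factor of the ETS family, was the 1 gene that passed, at 145 ± 94.3 CPM in functional against 29.6 ± 7.48 in developing teeth (2.29 ± 0.42, adjusted p = 0.0382, and 0.078 with the replicate block, edgeR). GRHL3 (0.89 ± 0.59) and TRIM29 (0.14 ± 0.28) did not pass. The part of epithelial or mucosal content in the BARX2 difference was not tested. Skeletal muscle is another place of BARX2 expression. Of its list, 7 of 10 genes were in the table under these symbols, MYH1, MYH2 and MYLPF being absent. They summed to 4.29 to 31.3 CPM in functional and 2.96 to 62.9 CPM in developing libraries. Of 3 tested, 0 passed by edgeR. ACTA1 (log2 fold change -3.71 ± 1.2) was lower at an unadjusted p under 0.05 and by DESeq2. DES (1.16 ± 0.91) and TTN (1.38 ± 1.18) were positive and not called by either. MYOG was at 0 in all 8 libraries, and the other untested genes CKM, TNNT3 and MYOD1 reached at most 0.933, 0.0811 and 0.046 CPM. ACTA1 reached 59.4 CPM in developing replicate 3 and DES 27.9 CPM in functional replicate 2. The part of muscle content in the BARX2 difference was not tested.

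BARX1 was the most uneven of the 9 genes within groups. It measured 15.3, 49.6, 5.7 and 16 CPM in developing and 1.3, 3, 20 and 25.9 CPM in functional replicates 1 to 4. The highest and lowest library differed 8.7-fold in developing and 19.9-fold in functional teeth, and the groups overlapped over most of their range. The counts behind the lowest values, 23 and 74 in functional replicates 1 and 2, leave the low level well above 0. The log2 fold change was -0.79 ± 0.95 (adjusted p = 0.664, edgeR, with a 95% interval of -2.95 to 1.38). The sign was decided by 1 library: without developing replicate 2 the value was 0.02. Same-numbered libraries went both ways (-3.56, -4.05, 1.81 and 0.69, log2).

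Against BARX2, BARX1 was lower in every functional library. BARX1 counts per BARX2 count were 3.8, 2.64, 1.74 and 1.05 in developing and 0.0108, 0.039, 0.329 and 0.351 in functional replicates 1 to 4. The mean log2 ratio was 1.05 ± 0.8 and -3.58 ± 2.46, a difference of -4.63 (two-sided exact permutation test, p = 0.0286, adjusted over 3 gene pairs 0.0429). Here too p is the smallest possible with 4 against 4 libraries, and with the replicate block (exact sign flips) the adjusted p was 0.188. BARX2 alone did not overlap between groups, and BARX1 alone did.

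OSR2 was lower in functional teeth on average without passing. Its levels were 24.7, 16.5, 25.1 and 33 CPM in developing and 13.7, 17.8, 11.8 and 16.6 CPM in functional replicates 1 to 4. Developing replicate 2 was the exception, lying among the functional libraries. The log2 fold change was -0.73 ± 0.22 (adjusted p = 0.114, edgeR), and -0.88 with an adjusted p of 0.0477 without developing replicate 2. OSR1, its relative, had 1 count in all 8 libraries together.

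PITX1 measured 33.2, 62.3, 76.4 and 87.5 CPM in developing and 59.1, 36.7, 41.6 and 56.5 CPM in functional replicates 1 to 4. Developing replicate 1 was the lowest of all 8 libraries and the other developing libraries were the highest 3. The log2 fold change was -0.42 ± 0.3 (adjusted p = 0.446, edgeR; 95% interval -1.11 to 0.27).

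PAX9 was about even across the series in TMM-scaled CPM. It measured 14.2, 11.5, 11.8 and 11.7 CPM in developing and 9.09, 8.76, 12.1 and 13.2 CPM in functional replicates 1 to 4. Functional replicates 3 and 4 lay among the developing libraries, and replicates 1 and 2 below them. The log2 fold change was -0.18 ± 0.18 (adjusted p = 0.571, edgeR), and its 95% interval of -0.59 to 0.22 does not reach a 2-fold difference either way. That interval holds for TMM scaling. On library totals without TMM the value was -0.78 ± 0.18 (adjusted p = 0.0126, edgeR), where the median of all genes was -0.59 and 49.1% of them passed. Of 6 other PAX genes looked up (PAX1, PAX2, PAX3, PAX6, PAX7 and PAX8), 4 had no count in any library and the highest value was 0.652 CPM, of PAX3. MSX1, the partner of PAX9 in mouse tooth mesenchyme, averaged 60.6 ± 22.1 CPM in functional and 87.6 ± 15.8 in developing teeth (log2 fold change -0.53 ± 0.26), and BMP4, which both maintain there, 47.4 ± 13.2 and 44.5 ± 15.1 CPM (0.09 ± 0.28). Neither passed (adjusted p = 0.273 and 0.871, edgeR).

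PRRX1 and PRRX2 showed no difference past the test. PRRX1 measured 167, 109, 154 and 122 CPM in developing and 102, 129, 199 and 219 CPM in functional replicates 1 to 4. The functional libraries held both the lowest and the highest 2 values. Its log2 fold change was 0.23 ± 0.27 (adjusted p = 0.654, edgeR; 95% interval -0.39 to 0.84). PRRX2 measured 11.4, 10.9, 9.27 and 11.7 CPM in developing and 8.8, 11.6, 10 and 18.1 CPM in functional replicates 1 to 4, where the male library stood above the rest. Its log2 fold change was 0.17 ± 0.23 (adjusted p = 0.703; 95% interval -0.36 to 0.7). Both signs turned negative on library totals without TMM (-0.38 and -0.44), and that of PRRX2 was -0.09 without functional replicate 4. PRRX1 counts per PRRX2 count were 14.7, 10, 16.6 and 10.4 in developing and 11.5, 11.1, 19.8 and 12.1 in functional replicates 1 to 4. Their mean log2 ratios, 3.66 ± 0.36 and 3.73 ± 0.39 (SD, n = 4), differed by 0.07 (exact permutation test, two-sided, p = 0.83, the same when adjusted).

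**Figure D3:**
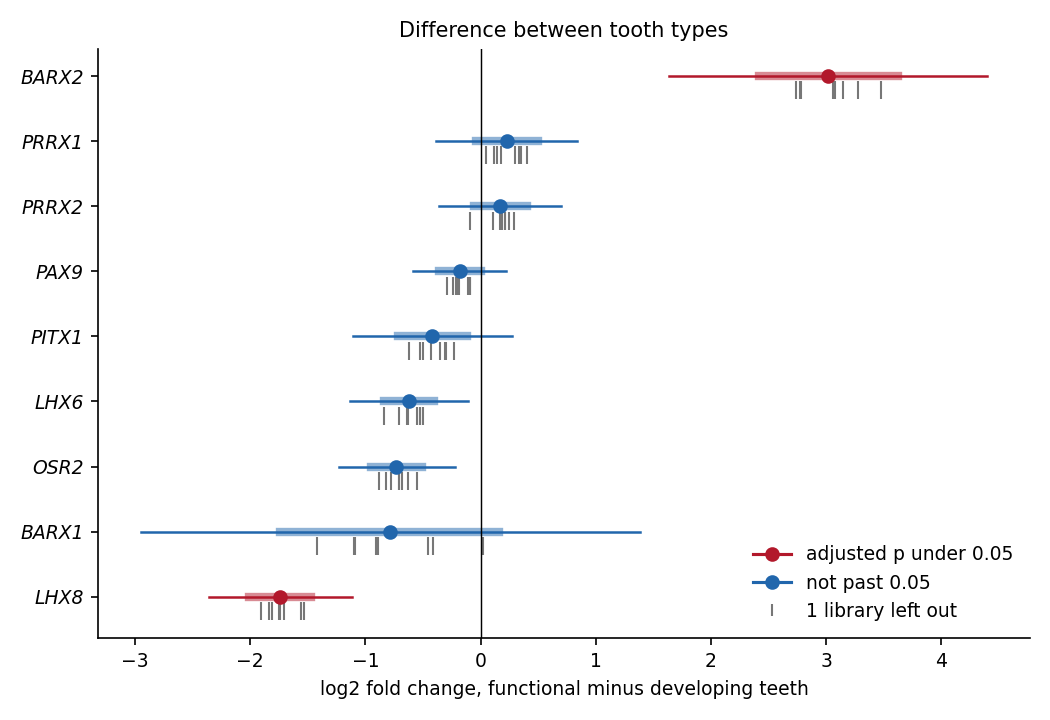
Log2 fold change of functional minus developing teeth (x axis) for each gene, with SE (thick bar), 95% interval (thin bar) and, below each, the values with 1 library left out (ticks). LHX8 (-1.74) and BARX2 (3.02) passed at an adjusted p under 0.05, and BARX1 has the widest interval, -2.95 to 1.38.

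Male and female libraries were compared in a model with tooth type, and the comparison also carries the tooth number and RNA integrity of replicate 4. None of the 9 genes passed for the male minus female term (edgeR; smallest adjusted p 0.199; no other test was run), where 4.68% of all genes did. At an unadjusted p under 0.05 there were 2 of the 9 and 21% of all genes. The 2 genes were PRRX2 (log2 difference 0.51 ± 0.2) and LHX8 (-0.59 ± 0.25). For the interaction, which asks whether the tooth type difference was another in the male pair, 0 of the 9 and 0% of all genes passed (edgeR; 0 of the 9 and 3.32% of all genes at an unadjusted p under 0.05; spread from female libraries alone). Among the 6 female libraries, the values were -1.65 for LHX8 (adjusted p = 0.0969) and 3.32 for BARX2 (adjusted p = 0.131, edgeR), where 0.0194% of genes passed.

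Among signals known to act on or with these factors, GLI1, PTCH1, FGF9 and FGF3 were lower in functional teeth. In a list of 27 tooth field signals and partner factors, 24 were tested, 18 had a negative log2 fold change, 4 were lower and 0 higher, and the median was -0.63 against 0 over all genes. At an unadjusted p under 0.05 the list had 13 lower, by DESeq2 12. With the replicate block 5 were lower, where FGF3 was not called and FGF10 and EDAR were (adjusted p = 0.073, 0.0318 and 0.0462, edgeR). Hedgehog signalling from the dental epithelium is needed for tooth growth in mouse. Its readouts GLI1 (1.51 ± 0.427 CPM in functional against 17.1 ± 7.17 in developing teeth, log2 fold change -3.5 ± 0.37, adjusted p = 0.0116) and PTCH1 (-4.03 ± 0.52, adjusted p = 0.0196) fell, as did the epithelial growth factor gene FGF9 (-2.64 ± 0.36, adjusted p = 0.0224, edgeR). FGF3, a mesenchymal growth factor gene, was also lower, at 0.0655 ± 0.0688 CPM in functional against 3.11 ± 3.27 in developing teeth, and was at 0 in functional replicate 3 (adjusted p = 0.0424, edgeR). FGF8, the inducer of LHX6, LHX8, BARX1 and PITX1 in the embryonic mouse jaw, had no count in any of the 8 libraries. SFRP2, which encodes a secreted inhibitor of Wnt signalling, was at 109 ± 44.1 CPM in functional against 262 ± 86.1 in developing teeth and did not pass (adjusted p = 0.0863, edgeR).

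Other homeobox, PAX and OSR genes of the jaw gave no call. Of 35 listed, 34 were in the table and 16 tested, with 10 positive and 6 negative log2 fold changes and a median of 0.23. By edgeR 0 passed (at an unadjusted p under 0.05, 3 were higher and 1 lower), and by DESeq2 1 was higher and 1 lower. The groups did not overlap for the LIM-homeobox gene ISL1, which was below in functional teeth (0.42 ± 0.144 against 1.73 ± 1.05 CPM), or for PBX3, a homeodomain cofactor gene, which was above (9.27 ± 0.846 against 5.35 ± 1.7 CPM). Of all genes, 15% did not overlap. Of 6 other LHX genes (LHX1, LHX2, LHX3, LHX4, LHX5 and LHX9), 3 had no count and the highest value was 0.565 CPM, of LHX2. LIM-homeodomain factors act through the cofactors LDB1 and LDB2. Of 9 tested LIM domain partners 0 passed by edgeR or DESeq2 (at an unadjusted p under 0.05, 1 was higher), with log2 fold changes of -0.13 ± 0.21 for LDB1 and -0.09 ± 0.25 for LDB2.

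**Figure D4:**
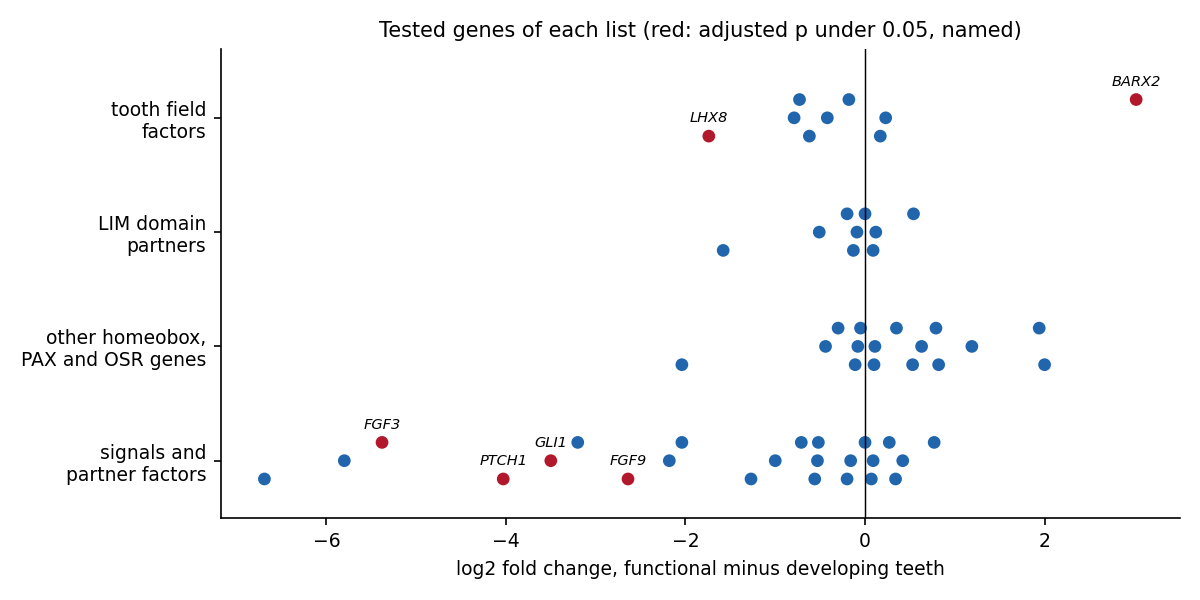
Log2 fold change of functional minus developing teeth (x axis) for every tested gene of 4 groups: the 9 tooth field factors, 9 LIM domain partners, 16 other homeobox, PAX and OSR genes and 24 signals and partner factors. Red points passed at an adjusted p under 0.05, and apart from LHX8 and BARX2 these are FGF3, PTCH1, GLI1 and FGF9, all lower in functional teeth.

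Genes most like each factor were sought among 11862 other genes with a symbol, by Pearson's r of log2 CPM over the 8 libraries. With so many genes and 8 libraries that share depth and tooth type, high values are common, and r is given as a description. For LHX8 the closest were ARL3, a small GTPase gene of cilium transport (r = 0.998), ZNF326 (0.983) and the glycosyltransferase gene B4GALNT4 (0.982), the last lower in functional teeth by itself (log2 fold change -1.63, adjusted p = 0.0394, edgeR; in the blocked fit 0.0518). For BARX2 they were the receptor gene GPR160 (0.978), the Golgi transport gene RAB6B (0.974) and the interferon response factor gene IRF1 (0.972). RAB6B (1.28, adjusted p = 0.0315, and 0.0555 with the replicate block, edgeR) and IRF1 (1.37, adjusted p = 0.0211) were higher in functional teeth. For LHX6 they were BBS9 (0.981), a subunit gene of the ciliary BBSome, INTS8 (0.977) and FASN (0.971), the fatty acid synthase gene.

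Likeness was also computed within groups, after removing group means. For the closest genes of the 2 factors whose groups did not overlap, it was 0.987 (LHX8 with ARL3) and 0.932 (BARX2 with GPR160). Genes like PITX1 included LRIG1 (r = 0.982, or 0.98 after removing group means) and RBBP8NL (0.979). PRRX1 was most like TNC (0.985, and 0.985 within groups), the gene of the matrix protein tenascin C, which measured 415, 191, 300 and 252 CPM in developing and 188, 280, 482 and 595 CPM in functional replicates 1 to 4, then GCDH (0.962) and VEGFB (0.958). OSR2 was most like DPF2 (0.977), SYT11 (0.974) and DKK2 (0.969, or 0.925 within groups). DKK2, a secreted Wnt antagonist gene, measured 10.6, 4.83, 20.2 and 20.7 CPM in developing and 3.05, 5.19, 1.76 and 3.65 CPM in functional replicates 1 to 4, so developing replicate 2 again lay among the functional libraries. TNC and DKK2 were also members of the lists above. PAX9 was most like ABCB11 (0.954), TOMM40L (0.95) and ADORA2A (0.947), BARX1 most like CFAP58 (0.942), GRIK4 (0.94) and NECAB3 (0.934), and PRRX2 most like ERP44 (0.971), CFL1 (0.964) and ABCD2 (0.962).

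**Figure D5:**
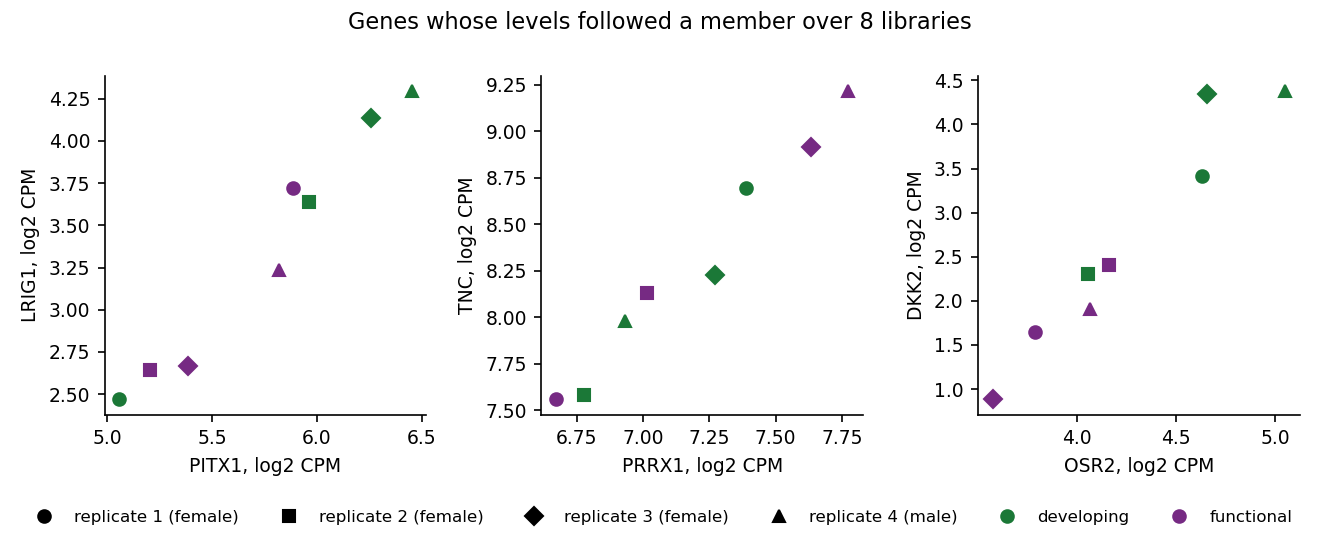
Log2 CPM of LRIG1 against PITX1, TNC against PRRX1 and DKK2 against OSR2, each point 1 of the 8 libraries, coloured by tooth type with a symbol for each replicate number. The points rise together in each panel (r = 0.982, 0.985 and 0.969), and developing replicate 1 is the lowest library for PITX1.

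Among the 9 factors themselves, the strongest relation over 8 libraries was inverse, between LHX8 and BARX2 (r = -0.917, or -0.524 after removing group means, which the group difference sets in large part). PAX9 and PRRX1 varied together within groups (r = 0.9, and 0.672 with group means kept). LHX6 and LHX8 had r = 0.758 over 8 libraries and 0.309 within groups, and PRRX1 and PRRX2 0.545 and 0.523.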

How the data were processed

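RNA was sequenced from 8 samples of whole teeth with a stranded mRNA kit and paired reads of 59 bases, per the labels' protocols. The table deposited by the authors holds estimated counts, not normalized, made with kallisto, per the submitters' processing notes, with version, strand setting, build, annotation and filters not given in the sources used here. Before testing, counts were rounded to whole numbers (34.2% had a fraction). Of 22488 row names, 22407 matched gene symbols of the RefSeq assembly MPM_Emac_v1.0 (names only), and the other 81 (0.909% to 1.406% of a library's counts) were left out. In that annotation no gene overlapped any of the 9. Transcript lengths were not used here, so levels are not compared between genes.

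Genes were filtered with filterByExpr and scaled by TMM (factors 0.752 to 1.386) in edgeR 4.0.16 (R 4.3.3). The quasi-likelihood test compared functional with developing teeth without a covariate, at an adjusted p under 0.05. SE was taken as log2 fold change over the square root of F. CPM use TMM-scaled library sizes and log2 CPM a prior count of 2. DESeq2 1.42.0 and limma voom 3.58.1 were alternatives. Ratios of gene pairs used counts plus 0.5 and exact permutation tests (scipy 1.17.1). Simulated counts with known changes were used for checking: of 50 genes changed 4-fold, 41 were recovered over 15305 genes in functional against developing, and 5 of 50 changed 2-fold.

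Deviations of same-numbered libraries from their group means correlated at 0.159 to 0.678 in 4 of 4 pairs, the highest in the male pair. Some libraries with different numbers correlated more. Functional replicate 3 had 0.413 with developing replicate 1 and 0.308 with its own number, and functional replicate 2 had 0.167 and 0.159. Whether the numbers mark matched samples is therefore not settled, and the replicate block was fitted as an alternative. The blocked value is given where it changes a call of a named gene.

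The members, lists and tests were chosen with earlier results of these data known. Named were all 9 members, up to 5 genes past the threshold in each list (marker lists of other cell types included), and the 3 genes most like each member. Some genes named by this rule are not reported here. HAND2, EPCAM, TP63 and other genes named without passing were picked after their values were seen.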

Additional observations from a re-analysis of the deposited data

Results flagged for a closer look

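PAX9 in developing teeth was set apart by 1 library of 4. Developing replicate 1 held 14.2 CPM and replicates 2 to 4 held 11.5 to 11.8 CPM, so that its gap to the next library took 0.891 of the group's range, above Dixon's 95% critical value for 4 samples. Of 18 groups of the 9 genes looked at, 1 stood out this way, and chance alone gives about 1 in 20. Without developing replicate 1 the log2 fold change of PAX9 was -0.09, against -0.18 with it.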

How the results depend on the processing

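LHX8 kept its direction in 17 of 17 alternatives (log2 fold change -2.34 to -1.53) and passed in 10, and BARX2 in 17 of 17 (2.47 to 3.48) and passed in 8. LHX6, PAX9, PITX1 and OSR2 also kept theirs in 17. For LHX8 and BARX2, whose groups did not overlap, the fits with fewer libraries could hardly have reversed the direction. Of the 9 genes, 1 passed with the replicate block (BARX2 lost its call, adjusted p = 0.0591), 0 among the 6 female libraries and 6 on library totals without TMM. With 1 library left out, 0 to 3 passed. Over all genes, the counts of higher and lower were 69 and 151 with the replicate block, 1 and 2 in female libraries, 721 and 959 by DESeq2 and 76 and 143 by limma voom. There were 246 higher with a sex covariate and 7453 lower on library totals, and 2 to 184 higher and 5 to 457 lower with 1 library left out. Fewer samples enter the female and left-out fits, but the share called also varied with the library left out. It was 4.07% of all genes without developing replicate 2 and 0.0509% without functional replicate 4. The cause was not tested for any setting. Signs reversed for PRRX1 and PRRX2 in female libraries (0 when rounded, and -0.05) and on library totals (-0.38 and -0.44), for PRRX2 without functional replicate 4 (-0.09, in a range of -0.09 to 0.29 with 1 library left out) and for BARX1 without developing replicate 2 (0.02, in a range of -1.42 to 0.02). The ratio differences ranged from 0.91 to 1.28 for LHX6:LHX8, -5.32 to -3.65 for BARX1:BARX2 and -0.13 to 0.2 for PRRX1:PRRX2 with 1 library left out, where the smallest possible exact p is 0.0571. With the replicate block (exact sign flips, smallest possible p 0.125) they were 1.1 and -4.63, each with an adjusted p of 0.188. The block changed no other call among the 9 genes. Low counts limited none of the 9: the lowest was 23, of BARX1.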
